A study of Mus musculus with 2 samples.

Results

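The enzymes described here write, remove or oxidise chemical marks on histones and DNA. They were taken by name from the tables of gene expression, as every symbol of the lysine demethylases (Kdm), histone deacetylases (Hdac), sirtuins (Sirt), DNA methyltransferases (Dnmt), Tet dioxygenases, SET domain proteins (Setd, Setdb, Suv), Ezh, Ehmt and Mll methyltransferases, arginine methyltransferases (Prmt) and numbered lysine acetyltransferases (Kat). The rule found 74 of 22558 genes and used no measured value. RNA was sequenced from mammary tumour cells of FVB mice, an inbred strain, that were freshly dissociated, sorted by flow cytometry and left untreated. One library came from tumour-initiating cells (TIC), the sorted cells that can start a new tumour, and the other from non-tumorigenic cells (NTC). The driver of the tumours, the gate of the sort, the age of the mice and the number of tumours pooled are not given in the labels used here. With 1 library a group there is no replicate, so no SD, test or p-value can be given, and each difference is one between these 2 libraries.

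Histone tails carry acetyl groups, set by acetyltransferases and taken off by deacetylases, and methyl groups on lysine or arginine, set by methyltransferases and taken off by demethylases. Acetylation and methylation of lysine 4 of histone H3 (H3K4) accompany active genes, whereas methylation of H3K9, H3K27 and H4K20 accompanies repressed or compacted chromatin. Dnmt enzymes methylate cytosine in CG dinucleotides, and Tet enzymes oxidise that mark as a step towards its removal. In the mammary gland such marks separate the basal from the luminal lineage, and several of these enzymes are frequently mutated or targeted by drugs in cancer.

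Levels are given in FPKM, fragments per kilobase of transcript scaled to the size of the library, always as TIC against NTC. A ratio is log2((TIC + 1)/(NTC + 1)), which understates the difference of low genes. A gene is called measured where its levels in the 2 libraries average 1 FPKM or more. Depth was estimated from the smallest steps of low values: 1 fragment on 1 kb was worth about 0.0476 FPKM in TIC and 0.0463 FPKM in NTC. Both values came from the same narrow window, so they could not differ widely and do not show that the depths were alike. The libraries differed strongly in lineage genes. Each of the 8 basal markers examined exceeded NTC by 2-fold or more in TIC (summed level 3727 against 32.8 FPKM) and the 8 luminal markers fell short of it by 2-fold or more (48.1 against 2675 FPKM). Among fibroblast markers, 4 of 8 were measured, each 2-fold or more above NTC (sum of the 8, 174 against 2.44 FPKM, of which Dcn gave 152 against 1.51). The others were low in both, with Col1a1 at 0.459 against 0.339 FPKM, Col3a1 at 0.221 against 0 and Lum at 0.573 against 0. Fap was listed at 0 in both. Immune markers summed to 2.78 against 7.37 FPKM over 17 genes, of which S100a8 gave 0 against 5.11, with Ptprc, Cd3e, Ms4a1 and 6 others at 0 in both. The other measured immune markers were split, with Lyz2 at 1.56 against 0.727 FPKM and Cd68 at 0.828 against 1.38. The 7 endothelial markers summed to 3.14 against 1.01 FPKM, and none of them was measured. Kdr gave 1.61 FPKM in TIC but was listed at 0 in NTC, whereas Vwf, the only one lower in TIC, had 0.0148 against 0.663. In such bulk libraries a smaller share of one kind of cell and less RNA per cell cannot be told apart, and the part of these lineage differences in the results below was not tested.

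Of the 74 enzymes, 68 were measured, and none of them was at least 2-fold higher in TIC while 10 were at least 2-fold lower. Among all 12004 measured genes, 14.6% passed 2-fold upwards in TIC and 13.8% downwards. The share of enzymes that were lower (14.7%) was thus near that background, and the absence of enzymes 2-fold higher was not. The 10 lower genes were Dnmt1, Dnmt3b, Kat2b, Hdac5, Hdac10, Sirt3, Sirt4, Sirt5, Sirt7 and Setd8. That split depended on the scaling of the libraries. The median ratio was -0.16 for the enzymes and -0.16 for all measured genes, and 43 of 68 enzymes had lower values in TIC, as had 7092 of the 12004 measured genes. With ratios centred on the median measured gene, 4 enzymes (Dnmt3a, Hdac2, Hdac7 and Prmt1) passed 2-fold upwards and 7 downwards, against 16.3% and 11.3% of all measured genes. At a 1.5-fold difference, 5 enzymes were higher (7.35%) and 16 lower (23.5%), with 20.4% and 26.7% of all measured genes. The enzymes stayed closer together than genes at large: the middle 50% of their ratios spanned 0.62 on the log2 scale, against 1.02 for all measured genes, and 85.3% lay within 2-fold, against 71.6%. The enzymes were also expressed at a higher median level (17.5 against 11.5 FPKM), and among measured genes averaging 5 FPKM or more the span was 0.93.

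**Figure D1:**
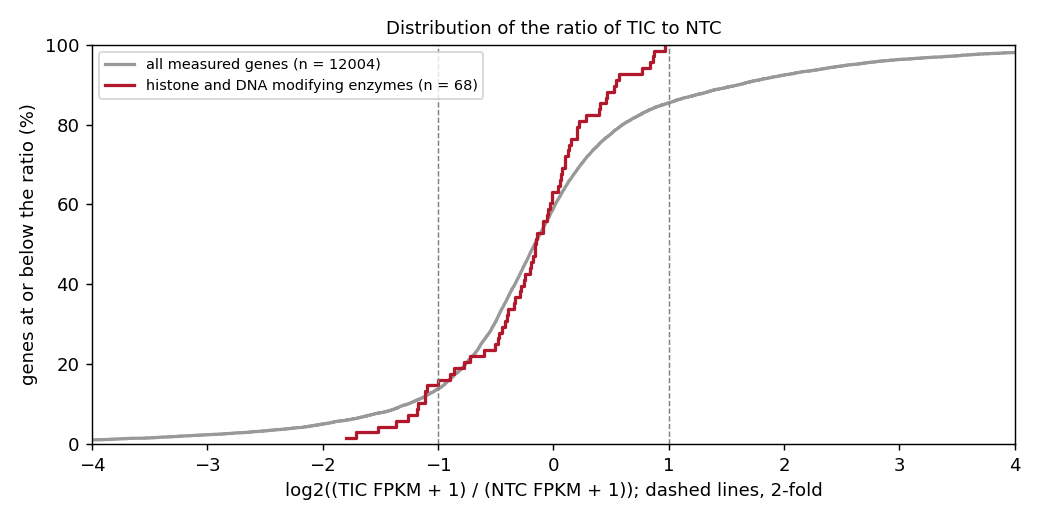
Cumulative share of genes (vertical axis, %) at or below each log2 ratio of TIC to NTC (horizontal axis) for the 68 measured enzymes and the 12004 measured genes, 1 library each. The enzyme curve ends just below the upper 2-fold line, where 14.6% of all measured genes lie beyond, and near the lower 2-fold line it runs close to the curve of all genes.

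The DNA methyltransferases showed the sharpest contrast within a family, since Dnmt3a and Dnmt3b, both enzymes that place methyl groups on unmethylated DNA, differed in opposite directions. The start regions of these genes and of Dnmt1, and of Setd8, the H4K20 enzyme with the highest level among the lower genes, are shown to set the sequence beside the direction of the RNA. Each line gives the 250 bases before an annotated start in RefSeq (build GRCm38.p6), 5′ to 3′ on the strand of the gene. Capitals mark the GC box GGGCGG or its reverse complement CCGCCC, the letters searched on both strands. Matches that abut are each counted. Where a gene had several starts, the window with the most CG dinucleotides and no overlap with its own exons in the GENCODE annotation is given. The windows lie at chr9:20952980-20953229 on the minus strand for Dnmt1, chr12:3806730-3806979 on the plus strand for Dnmt3a, chr2:153649199-153649448 on the plus strand for Dnmt3b and chr5:124439680-124439929 on the plus strand for Setd8 (now Kmt5a).
Dnmt1: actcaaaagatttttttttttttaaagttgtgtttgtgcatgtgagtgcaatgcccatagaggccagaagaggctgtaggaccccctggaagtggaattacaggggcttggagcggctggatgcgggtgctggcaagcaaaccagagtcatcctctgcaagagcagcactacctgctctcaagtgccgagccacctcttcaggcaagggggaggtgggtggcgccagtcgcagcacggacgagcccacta
Dnmt3a: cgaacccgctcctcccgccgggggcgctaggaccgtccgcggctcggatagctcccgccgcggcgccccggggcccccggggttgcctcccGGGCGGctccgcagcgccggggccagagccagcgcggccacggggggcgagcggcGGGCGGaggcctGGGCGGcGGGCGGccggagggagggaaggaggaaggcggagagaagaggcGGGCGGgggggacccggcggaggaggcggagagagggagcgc
Dnmt3b: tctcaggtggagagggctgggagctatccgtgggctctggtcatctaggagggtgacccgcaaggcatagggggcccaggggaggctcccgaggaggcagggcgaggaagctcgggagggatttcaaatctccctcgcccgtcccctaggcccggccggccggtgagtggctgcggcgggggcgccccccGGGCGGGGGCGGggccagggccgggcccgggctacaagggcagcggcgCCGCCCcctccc
Setd8: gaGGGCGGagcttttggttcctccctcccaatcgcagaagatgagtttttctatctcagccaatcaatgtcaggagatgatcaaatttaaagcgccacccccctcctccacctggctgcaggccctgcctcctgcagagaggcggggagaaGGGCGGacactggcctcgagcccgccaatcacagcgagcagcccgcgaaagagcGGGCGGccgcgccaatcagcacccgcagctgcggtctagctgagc

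The Dnmt3a window held 38 CG dinucleotides and 5 GC boxes, that of Dnmt3b 21 and 3, and that of Setd8 16 and 3. The Dnmt1 window held 7 CG dinucleotides and no GC box. G or C made up 82.4% in Dnmt3a, 75.2% in Dnmt3b, 62.0% in Setd8 and 54.8% in Dnmt1. The box was thus present at Dnmt3a, higher in TIC, and at Dnmt3b and Setd8, lower in TIC, and not found in this window of Dnmt1, also lower. Another annotated start of Dnmt1, not shown, held 26 CG dinucleotides and a GC box. Of 74 enzymes, 65 had a window in the RefSeq table, matched by symbol or, for renamed genes, by synonym and chromosome. Taking the window richest in CG for each gene, the enzymes had a median of 20 CG dinucleotides, against 6 for 27025 genes in the table. A GC box was present in 41 of 65 enzymes (63.1%) and in 34.4% of all genes, or 32.7% of all 32851 windows. These genes were not filtered for expression, whereas most of the enzymes were measured. The 9 lower genes with a window had a median of 14 CG dinucleotides, from 6 in Kat2b to 39 in Setd8, and the 50 measured enzymes within 2-fold had 20.5. FPKM were given per gene and do not tell which start was used.

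Dnmt1, which copies methylation onto the new strand after replication, had 36.8 against 84.2 FPKM (ratio -1.17, chromosome 9, 20711650 to 20764332, build mm9). Dnmt3b had 1.71 against 8.42 FPKM, 4.91-fold lower in TIC and the lowest ratio of all 68 enzymes (-1.80, chromosome 2, 153475190 to 153513466). Dnmt3a had 43.98 against 22.02 FPKM, the highest ratio of all (0.97, chromosome 12, 3806980 to 3914443). Dnmt3l, a relative without catalytic activity that stimulates the de novo enzymes in germ cells, was near 0 in both (0.0322 against 0.0306 FPKM). The make-up of the family therefore differed between the libraries, with Dnmt3a the most abundant in TIC and Dnmt1 in NTC. Dnmt3a made up 53.3% of the summed FPKM of the family in TIC and 19.2% in NTC, and Dnmt1 44.6% and 73.4%. Within a library, which removes any effect of scaling, the level of Dnmt3a was 25.7 times that of Dnmt3b in TIC and 2.62 times in NTC. Dnmt3b rested on roughly 155 fragments in TIC and 786 in NTC, and counting error alone puts its fold between 4.14 and 5.89 (95% interval, exact binomial). The gene table of GRCm38 lists pseudogenes named after Dnmt3a, Dnmt3b, Dnmt3l, Kat2b and Hdac1, so reads of these genes could be shared with copies.

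The Tet enzymes differed less. Tet1 had 12.2 against 6.73 FPKM (ratio 0.77), Tet2 had 15.0 against 19.2 (-0.34) and Tet3, the most abundant of the family in both, had 31.5 against 28.3 (0.15). Their sum was 58.6 against 54.2 FPKM, and the share of Tet1 in it was 20.8% in TIC and 12.4% in NTC.

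The proteins that act with the DNA methylation enzymes were mixed. Among the 18 measured, TIC was 2-fold or more above NTC for 2 and below it for 2, with a median ratio of -0.39. Of all 12004 measured genes, 14.6% were at least 2-fold higher and 13.8% lower, the background for the counts of each further list below. Cxxc5 had 63.9 against 14.4 FPKM (2.07) and Cxxc4 had 4.31 against 1.14 (1.31), a pair of CXXC zinc finger proteins related to the DNA-binding part of Tet enzymes. Gadd45g, a stress-induced protein linked to demethylation, had 11.5 against 31.4 FPKM (-1.37). Hells, a remodeller needed for DNA methylation, had 4.96 against 12.2 (-1.15, but within 2-fold with equal FPKM sums or when centred). Uhrf1, which brings Dnmt1 to newly replicated DNA, had 24.9 against 34.8 FPKM (-0.47), a smaller difference than that of Dnmt1. Mat2a, which makes the methyl donor S-adenosylmethionine, had the highest level in NTC among these genes, 85.9 FPKM against 63.2 FPKM in TIC (-0.44).

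**Figure D2:**
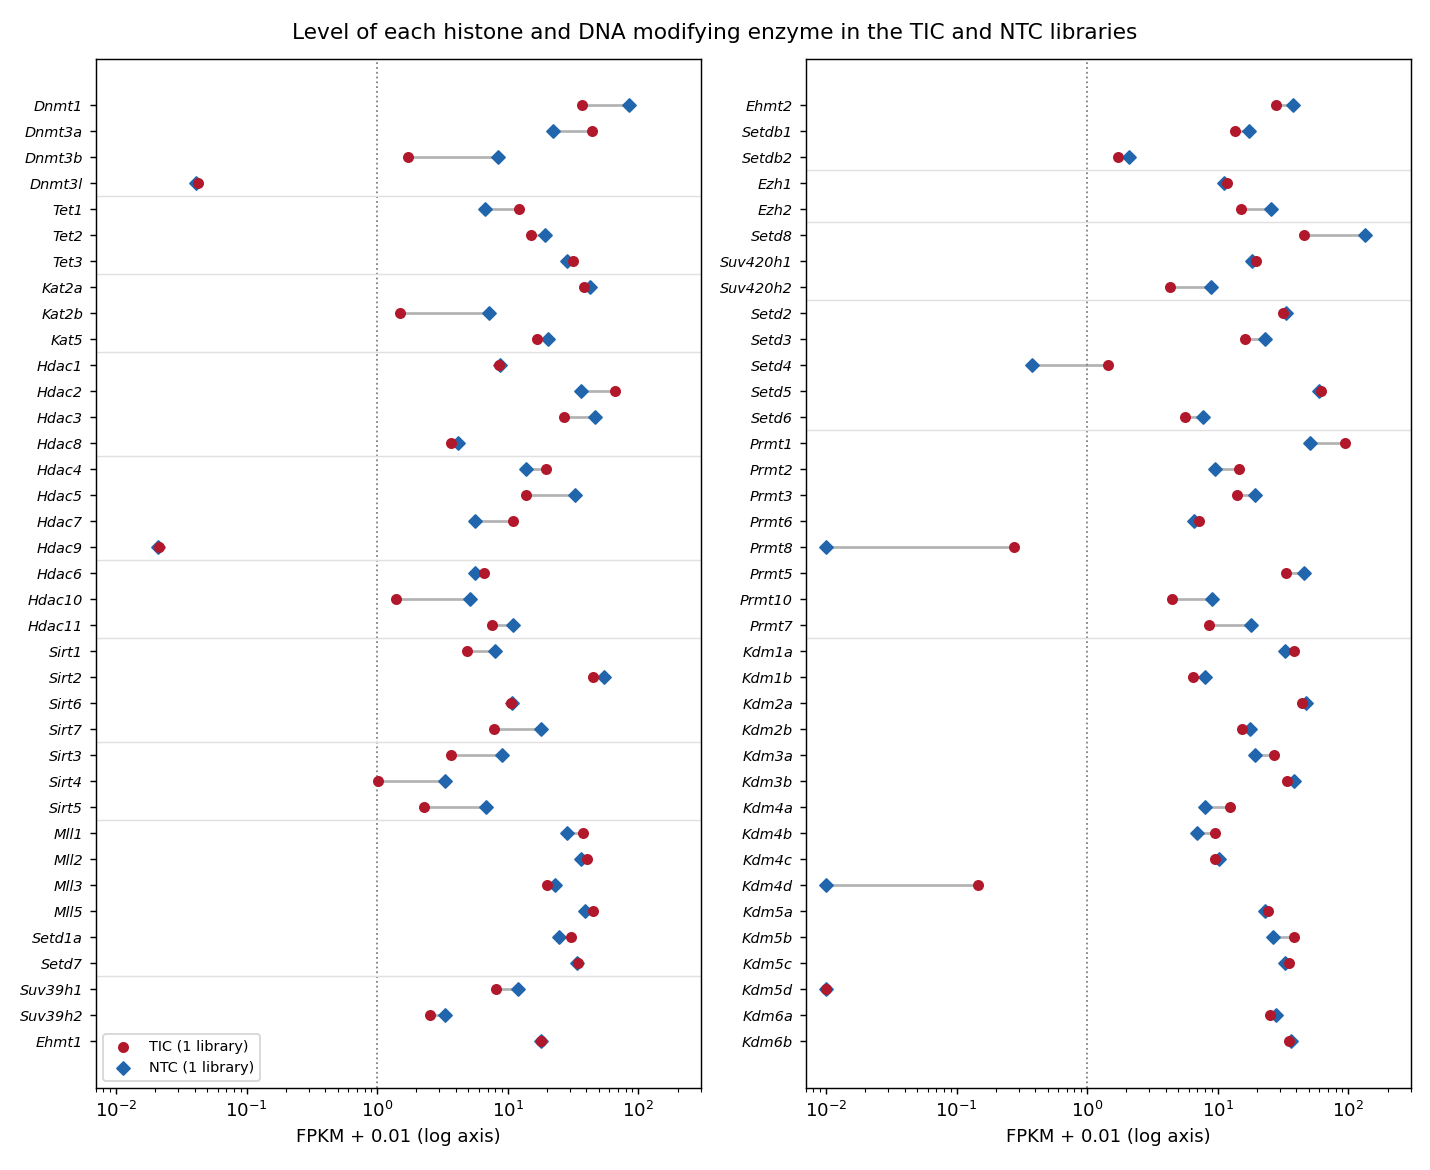
FPKM + 0.01 (horizontal log axis) of each of the 74 enzymes in the TIC (circles) and NTC (diamonds) libraries, 1 value each, in the order of their families, with a dotted line at 1 FPKM. Most pairs lie close together, the widest gaps among measured genes are those of Dnmt3b (1.71 against 8.42 FPKM) and Kat2b (1.48 against 7.12), and genes listed at 0 lie at the left edge.

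Acetyltransferases add the mark that goes with open chromatin. Kat2b (PCAF) and Kat2a (GCN5), closely related enzymes of the same coactivator complexes, did not differ alike. Kat2b had 1.48 against 7.12 FPKM, 4.81-fold lower (ratio -1.71, chromosome 17, 53706296 to 53812046). Kat2a had 38.5 against 42.6 FPKM (-0.14, above 0 with equal FPKM sums or when centred on the median gene), so that Kat2a exceeded Kat2b 26.03 times in TIC and 5.99 times in NTC. Kat5 (Tip60), which also acts in the response to DNA breaks, had 16.8 against 20.2 FPKM (-0.25). Beyond these numbered genes, 14 further acetyltransferases were measured, of which 2 passed 2-fold upwards in TIC, none downwards, with a median of 0.08. Clock, the circadian transcription factor, had 16.1 against 7.17 FPKM (1.06) and Ncoa1, a coactivator of nuclear receptors, 50.2 against 24.6 (1.00). The general coactivators Crebbp (95.6 against 83.3 FPKM, 0.20) and Ep300 (41.1 against 43.8, -0.09) were similar in level in the libraries, and Hat1, which acetylates new histones before they are built in, had 26.7 against 49.9 FPKM (-0.88).

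Zinc-dependent deacetylases fall into classes by sequence, and within class I the leading gene differed between the libraries. Hdac2 had 65.9 against 36.4 FPKM (ratio 0.84, chromosome 10, 36694350 to 36721694), and Hdac3, the catalytic subunit of nuclear receptor corepressor complexes, had 26.8 against 46.6 (-0.78). Hdac2 thus was the highest member of its class in TIC, with 62.8% of the summed FPKM, and Hdac3 in NTC, with 48.6%. Hdac1, the close relative of Hdac2 in the same complexes, had 8.60 against 8.71 FPKM, and Hdac8 had 3.65 against 4.17. Hdac2 exceeded Hdac1 7.67 times in TIC and 4.18 times in NTC.

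Class IIa deacetylases, which shuttle between nucleus and cytoplasm and repress the Mef2 transcription factors, had members on both sides. Hdac5 had 13.8 against 32.7 FPKM (ratio -1.19, chromosome 11, 102057061 to 102091486), whereas Hdac7 had 10.99 against 5.56 (0.87, chromosome 15, 97614796 to 97674933) and Hdac4 19.5 against 13.9 (0.46). Hdac4 was 1.41 times the level of Hdac5 in TIC and 0.424 times in NTC, and Hdac9 was near 0 in both libraries (0.0112 against 0.0110 FPKM). Of the Mef2 genes examined, Mef2c was higher in TIC (3.18 against 0.430 FPKM, 1.55), and Mef2a (28.0 against 20.5, 0.43) and Mef2d (40.8 against 37.3, 0.13) lay within 2-fold. In class IIb, Hdac10, a polyamine deacetylase, had 1.38 against 5.13 FPKM (-1.37, chromosome 15, 88953733 to 88959130), and Hdac6, which deacetylates tubulin, 6.62 against 5.63 (0.20). Hdac11, the only class IV enzyme, had 7.63 against 11.02 FPKM (-0.48). Hdac10 rested on about 70 fragments in TIC and 267 in NTC, with a counting interval of 2.84 to 4.89 for its 3.72-fold difference.

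Of 28 measured corepressor partners of the deacetylases and Mef2 factors, 25 lay within 2-fold, 1 was higher and 2 were lower, with a median of -0.16. Besides Mef2c these were Mta3, a NuRD subunit (33.0 against 87.9 FPKM, ratio -1.39), and Gps2, a subunit of the Hdac3 complex (15.0 against 33.9, -1.13). Gps2 was within 2-fold with equal FPKM sums or when centred. The Hdac3 partner Ncor1 (37.5 against 56.3 FPKM, -0.58) was within 2-fold, as was Gatad2b of NuRD, the highest of the list in both libraries (128.5 against 118.6, 0.12).

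**Figure D3:**
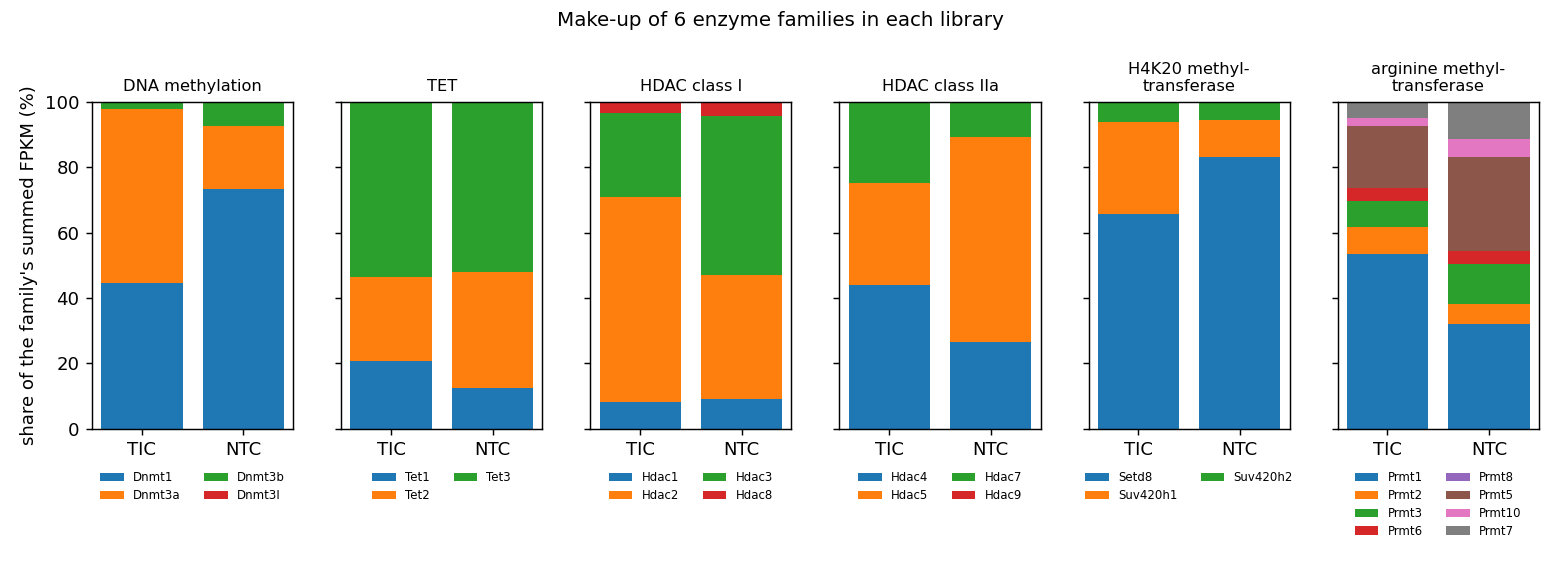
Share of the summed FPKM (vertical axis, %) that each gene takes within 6 enzyme families in the TIC and NTC libraries, 1 library each. Dnmt3a and Hdac2 take the largest shares of their families in TIC (53.3% and 62.8%), Dnmt1 and Hdac3 in NTC (73.4% and 48.6%), and Prmt1 takes 53.4% of its family in TIC and 32.2% in NTC.

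Sirtuins use NAD+ in place of zinc and link protein acylation to metabolism. All 7 had lower values in TIC, where 7092 of 12004 measured genes also did, and 6 of 7 did when libraries were scaled by their FPKM sum, by the median gene or by the upper quartile, where Sirt6 lay above 0. The 3 mitochondrial sirtuins were each at least 2-fold lower. Sirt5, which removes succinyl and malonyl groups, had 2.26 against 6.81 FPKM (ratio -1.26, chromosome 13, 43466085 to 43490572). Sirt3, the main mitochondrial deacetylase, had 3.67 against 9.09 (-1.11, chromosome 7, 148043296 to 148068208), and Sirt4 had 0.999 against 3.28 (-1.10, chromosome 5, 115928019 to 115934493). The summed level of these genes was 6.93 against 19.2 FPKM. Sirt4 was the thinnest of the lower genes, with about 38 fragments in TIC and 127 in NTC and a counting interval of 2.24 to 4.80 for its 3.28-fold difference. With ratios centred on the median measured gene, Sirt5 was still at least 2-fold lower, Sirt3 and Sirt4 were not, and the median of these 3 genes was -0.95. Outside mitochondria, Sirt7 of the nucleolus had 7.83 against 18.1 FPKM (-1.11, within 2-fold with equal FPKM sums, when centred or with a pseudocount of 5 FPKM) and Sirt1, a nuclear deacetylase of histones and transcription factors, 4.89 against 7.94 (-0.60). Sirt2, a mainly cytoplasmic tubulin deacetylase and the most abundant sirtuin in both libraries, had 44.8 against 54.8 FPKM (-0.29). Sirt6, which acts on H3K9 acetylation, had 10.6 against 10.8.

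The H3K4 and H3K9 methyltransferases all lay within 2-fold, several of them near 0. Of the 6 H3K4 genes, 5 had higher values in TIC under the deposited scaling and the other 3 scalings, with a median ratio of 0.17. Under the deposited scaling, 4912 of 12004 measured genes had higher values in TIC and 7092 lower ones. Mll1 had 38.0 against 28.5 FPKM (0.40), Setd1a, of the SET1 complex, 30.3 against 24.7 (0.28), and Mll5, a relative with no established methyltransferase activity, 45.1 against 39.1 (0.20). Mll2 (Kmt2d by its position), an enhancer H3K4 monomethylase, had 40.2 against 36.5 (0.14), and Setd7, which also methylates many other proteins, 34.6 against 33.7 (0.04). Mll3, the relative of Mll2, was the exception with 20.1 against 23.1 (-0.19), and it is among the genes whose row combines several gene identifiers. The partners of these enzymes were counted in the same way. Of 11 measured, 8 had lower values in TIC under the deposited scaling and the other 3 scalings. Their median was -0.34, against -0.16 for all measured genes, and -0.17 when centred on the median measured gene. Rbbp5, a core subunit of every MLL and SET1 complex, was far higher in TIC (54.8 against 12.8 FPKM, 2.02), whereas Dpy30, another core subunit, was lower (38.5 against 83.6, -1.10, but within 2-fold under each of the other 3 scalings). The core subunits Wdr5 (11.6 against 14.9 FPKM, -0.34) and Ash2l (21.0 against 24.3, -0.20) were within 2-fold, and Hcfc1 had the highest level of the list in TIC (60.6 against 59.5).

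All 6 H3K9 methyltransferases had lower values in TIC under the deposited scaling, with a median of -0.31, beside 7092 of 12004 measured genes, and 5 of 6 did under each of the other 3 scalings, where Ehmt1 lay above 0. Counting error alone covers the differences of Ehmt1 and Setdb2, as it does that of Setd7. Suv39h1, which builds constitutive heterochromatin, had 8.12 against 11.9 FPKM (-0.51), and its relative Suv39h2 2.54 against 3.30 (-0.28). Ehmt2 (G9a) had 28.1 against 37.5 FPKM (-0.40), and its partner Ehmt1 (GLP) 17.8 against 18.0 (-0.02). Setdb1, which silences retroelements with Trim28, had 13.7 against 17.4 (-0.33), and Setdb2 1.73 against 2.08 (-0.17). Of 8 measured heterochromatin partners none differed 2-fold, and the most abundant, Trim28, had 114.8 against 129.97 FPKM (-0.18).

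**Figure D4:**
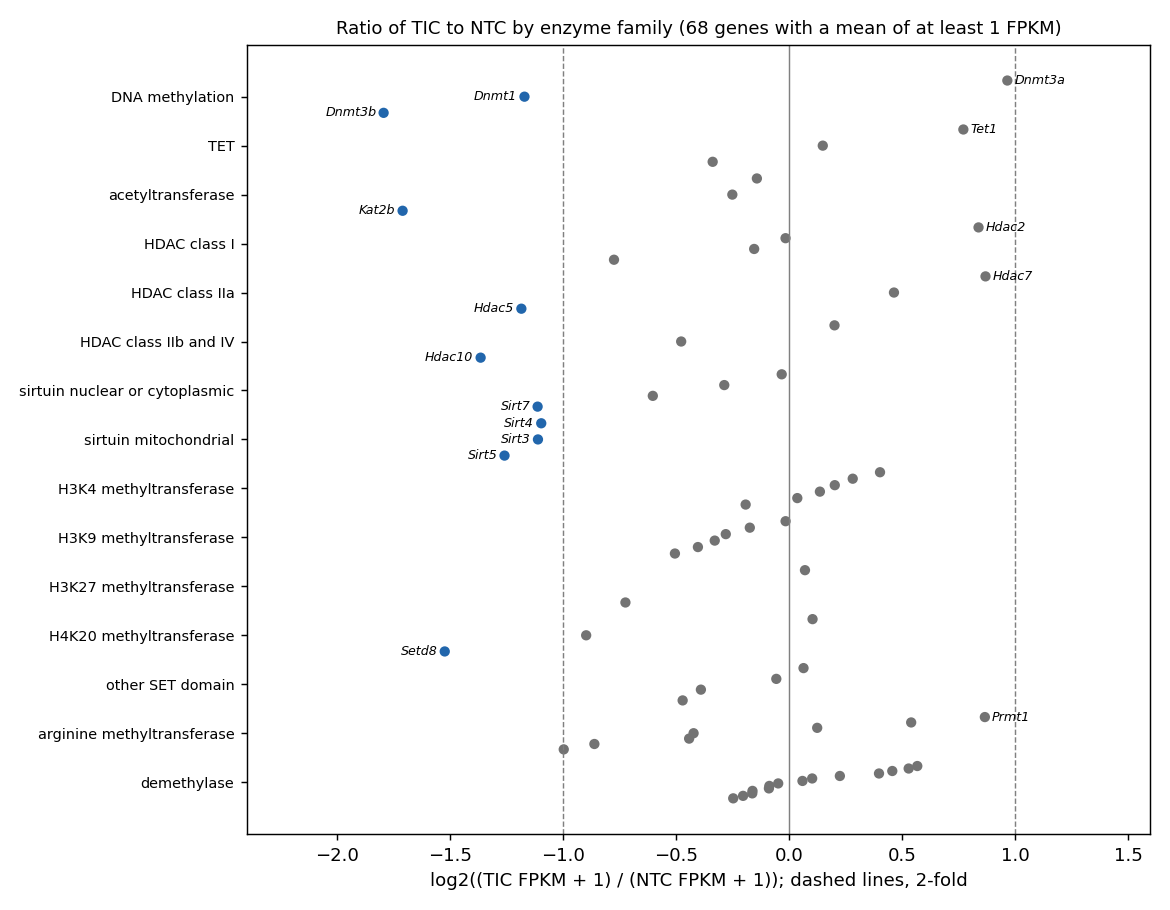
Log2 ratio of TIC to NTC (horizontal axis) of the 68 measured enzymes by family (vertical axis), 1 point a gene, with dashed lines at 2-fold and blue points for the 10 genes at least 2-fold lower in TIC. The 3 mitochondrial sirtuins lie together left of the lower line, the 14 demethylases gather around 0, and Dnmt3a (0.97) comes closest to the upper line.

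Of the 2 catalytic subunits of Polycomb repressive complex 2, which methylates H3K27, Ezh2 was lower in TIC within 2-fold (15.2 FPKM against 25.8 FPKM, ratio -0.72) and Ezh1 was 11.8 against 11.2 (0.07). Ezh2, the form usual in dividing cells, was thus 1.29 times the level of Ezh1 in TIC and 2.30 times in NTC. Among 7 partners, 1 was at least 2-fold higher and none lower. Of these 7, 4 had higher values in TIC and 3 lower ones, with a median ratio of 0.04. Phf19, which recruits the complex, had 8.15 against 2.05 FPKM (1.58). Phf1 (8.39 against 5.90, 0.44), Aebp2 (23.0 against 20.3, 0.17) and Mtf2 (10.5 against 10.2, 0.04) lay above 0 within 2-fold. The core subunits Suz12 (17.7 against 29.7, -0.72) and Eed (7.45 against 10.1, -0.39) and the cofactor Jarid2 (12.2 against 23.6, -0.90) lay below 0 within 2-fold.

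Setd8, the only enzyme of H4K20 monomethylation and a regulator of replication and mitosis, had 45.8 against 133.7 FPKM, 2.92-fold lower (ratio -1.53, chromosome 5, 124889939 to 124912316). In NTC it had the highest level of all 74 enzymes. The enzymes that extend the mark to di- and trimethylation were split, with Suv420h1 at 19.6 against 18.2 FPKM (0.10) and Suv420h2 at 4.32 against 8.92 (-0.90). Setd8 exceeded Suv420h1 2.34 times in TIC and 7.36 times in NTC. It was 1 of 2 genes, with Hdac5, that were at least 2-fold lower under all 8 settings of pseudocount, filter and scaling.

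Proliferation genes were lower in TIC in the same libraries, which is given here because Dnmt1, Ezh2 and Setd8 are known to be higher in dividing cells. All 21 measured genes of the list had lower values under each of the 4 scalings. Under the deposited scaling, 7092 of 12004 measured genes had lower values and 13.8% were at least 2-fold lower. In the list, 8 passed 2-fold under that scaling (6 with equal FPKM sums, 6 when centred, 7 with the upper quartile). The median ratio of the list was -0.80, against -0.16 for all measured genes. It was -0.62 with equal FPKM sums, -0.63 when centred and -0.68 with the upper quartile. The summed level of the list was 393 against 783 FPKM. Mcm6 had 16.1 against 73.5 FPKM (-2.12), Mcm5 12.2 against 36.4 (-1.50), Mcm2 21.9 against 57.1 (-1.34) and Mki67, the highest of the list in both libraries, 43.7 against 87.9 (-0.99). None of the list was at 0. The part of these genes in the lower levels of the enzymes was not tested.

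Among the other SET domain genes, Setd5 (62.0 against 59.3 FPKM, ratio 0.06) and Setd2 (31.8 against 33.2, -0.06), the enzyme of H3K36 trimethylation, were near equal. Setd3, which methylates actin, had 16.2 against 22.9 FPKM (-0.47), and Setd6, known for non-histone substrates, had 5.65 against 7.73 (-0.39). Setd4 did not reach a mean of 1 FPKM and had 1.43 against 0.365 FPKM. Beyond the members of the rule, 16 further methyltransferases were measured, with 2 at least 2-fold higher and 2 lower. Prdm1, a zinc finger repressor of differentiation programmes, was higher in TIC (9.35 against 0.680 FPKM, 2.62). Smyd5 (12.6 against 50.7, -1.93) and Whsc1, an H3K36 methyltransferase (10.9 against 33.6, -1.54), were lower. Carm1, an arginine methyltransferase that activates transcription, was the highest of them in both libraries, with 82.4 against 67.8 FPKM (0.28).

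The arginine methyltransferases again shared out differently within the family. Prmt1, which makes most asymmetric dimethylarginine, had 94.2 against 51.2 FPKM (ratio 0.87, chromosome 7, 52232128 to 52241702), the highest level of all 74 enzymes in TIC. Prmt5, the main enzyme of symmetric dimethylation, had 33.2 against 45.5 FPKM (-0.44), so that Prmt1 was 2.84 times Prmt5 in TIC and 1.13 times in NTC. Prmt7, which makes monomethylarginine, had 8.54 against 18.05 FPKM, 2.11-fold lower in FPKM and just within 2-fold as a ratio with the pseudocount (-0.998). Prmt10 (now Prmt9) had 4.49 against 8.99 FPKM (-0.86) and Prmt3, which methylates a ribosomal protein, 14.1 against 19.2 (-0.42). Prmt2 had 14.4 against 9.62 FPKM (0.54) in a row that combines several gene identifiers, Prmt6, which methylates H3R2, had 7.21 against 6.53 (0.12), and the brain enzyme Prmt8 was at 0.267 FPKM in TIC but listed at 0 in NTC. The 6 measured partners of these enzymes all lay within 2-fold, among them Wdr77, the obligate partner of Prmt5 (11.2 against 16.3 FPKM, -0.51), and Clns1a, an adaptor of Prmt5 with the highest level of the list (30.5 against 24.7, 0.29).

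All 14 measured histone demethylases lay within 2-fold, with ratios from -0.25 to 0.57. Under the deposited scaling 7 were higher and 7 lower, and when centred on the median measured gene 11 were higher and 3 lower. The largest ratios were those of Kdm4a (12.3 against 7.99 FPKM, 0.57), an H3K9 and H3K36 demethylase, Kdm5b (38.6 against 26.4, 0.53), an H3K4 demethylase, and Kdm3a (26.9 against 19.3, 0.46), an H3K9 demethylase induced by low oxygen. Kdm4b had 9.50 against 6.97 FPKM (0.40) and Kdm4c 9.61 against 10.3 (-0.09), whereas Kdm4d was at 0.135 FPKM in TIC but listed at 0 in NTC.

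The flavin-dependent Kdm1a (LSD1) had 38.2 against 32.6 FPKM (0.22), and Kdm1b 6.52 against 7.93 (-0.25). Rcor1, a partner of Kdm1a, had 49.4 against 34.5 FPKM (0.50). Under the deposited scaling, Rcor2 (1.95 against 2.02, -0.04) and Rcor3 (10.3 against 12.9, -0.30) did not lie above 0. Kdm2a, an H3K36 demethylase that binds unmethylated CG, had the highest level of the family in both libraries (44.5 against 47.4 FPKM), and Kdm2b had 15.3 against 17.7. Kdm3b had 34.1 against 38.3 FPKM, Kdm5a 24.2 against 23.2 and the X-linked Kdm5c 35.1 against 32.6. The H3K27 demethylases Kdm6a (25.0 against 28.1 FPKM, -0.16) and Kdm6b (34.9 against 36.1, -0.05) did not differ by more than the median gene. The Y-linked Kdm5d was listed at 0 in both. Among 10 further measured demethylases and related enzymes, 2 were at least 2-fold higher and 1 lower. Hr, an H3K9 demethylase of skin, had 17.7 against 4.04 FPKM (1.89), Jmjd1c, the highest of the list in TIC, 57.7 against 27.4 (1.05), and Padi2, which converts arginine to citrulline, 0.223 against 7.35 (-2.77).

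**Figure D5:**
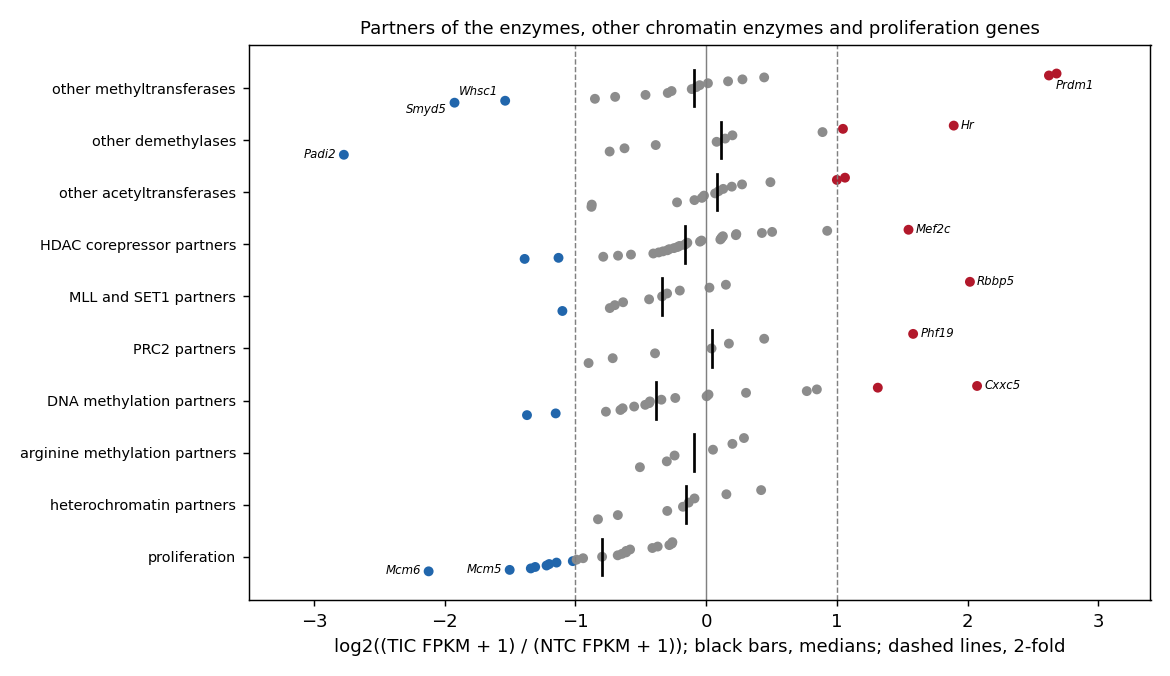
Log2 ratio of TIC to NTC (horizontal axis) of measured genes in 9 lists of partners and other chromatin enzymes and in the proliferation list (vertical axis), 1 point a gene, red or blue where at least 2-fold higher or lower in TIC, with black bars at medians. Rbbp5 (2.02), Cxxc5 (2.07) and Prdm1 (2.62) lie far to the right of the medians of their lists (-0.34, -0.39 and -0.09). The proliferation list lies wholly left of 0.

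Across the 117 measured partners and other chromatin enzymes taken once each, TIC was 2-fold or more above NTC for 11 and below it for 8. The other 98 lay within 2-fold, and the median was -0.14, against -0.16 for all measured genes. Of all 12004 measured genes, 14.6% were at least 2-fold higher and 13.8% lower. Of the 74 enzymes, 6 did not reach a mean of 1 FPKM: Dnmt3l, Hdac9, Setd4, Prmt8, Kdm4d and Kdm5d. The exact 0 of a gene in these tables can be a failed estimate and is not read as absence.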

How the data were processed

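RNA-seq was analysed from 1 library of TIC and 1 of NTC. Per the labels' protocols, cDNA was amplified from 15 ng of total RNA before libraries were built, a step that can alter relative levels. The authors deposited FPKM, 1 value for each gene. CASAVA 1.8.2, TopHat 1.4.0, Cufflinks, Cuffdiff and build mm9 are named in the submitters' processing notes, without roles or settings. The locus heading names a human build, but 99.7% of 20009 symbols lay on the chromosome of the mouse gene in GRCm38. For 6714 genes the offset of the end from GRCm38 was 1 more than that of the start, so starts were taken as counted from 0, and 1 was added.

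Members were matched by symbol. Ratios used a pseudocount of 1 FPKM and calls a 2-fold difference, for genes averaging 1 FPKM or more. Whether the calls would recur in other libraries was not tested, with 1 library a group. What 1 fragment is worth was taken as the median of FPKM × locus length in kb between 0.035 and 0.065 in short receptor genes (23 in TIC, 39 in NTC), so depth is rough. Fragment numbers use this rough depth and the longest GENCODE vM21 coding transcript, and their intervals cover counting error only. All measured members are named, and of each list up to 3 genes with the largest ratio each way and the most abundant. Other subunits and coactivators named (such as Ep300, Wdr5, Eed, Ncor1 and Rcor1) were chosen after their values were seen. Some genes counted in the lists are not reported here by name. The members, lists and pairs were chosen with earlier results of these data known. Alternatives were 2 other pseudocounts, 2 other filters and 3 other scalings, and a 1.5-fold call added after seeing the data. Analyses used Python 3.11.15, pandas 2.3.3 and scipy 1.17.1.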

Additional observations from a re-analysis of the deposited data

How the results depend on the processing

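The count of enzymes at least 2-fold higher in TIC was 0 with pseudocounts of 0.1 and 5 FPKM and with either filter. It became 4 with equal FPKM sums, 4 when centred on the median measured gene, 1 with the upper quartile, and 5 at a 1.5-fold call, which was added after seeing the data. The count of lower enzymes was 10 as reported, 12 with a pseudocount of 0.1 FPKM, 3 with one of 5 FPKM, 6 among genes averaging 5 FPKM or more, 6 with equal FPKM sums, 7 when centred, and 16 at a 1.5-fold call. The lower genes left with a pseudocount of 5 FPKM were Dnmt1, Hdac5 and Setd8. The stricter filter tested 61 enzymes and removes low genes by construction. The median ratio of the enzymes was -0.17 and -0.11 with pseudocounts of 0.1 and 5 FPKM, -0.088 with the stricter filter, -0.089 with none, and -0.045 with the upper quartile. It turned to 0.0088 with equal FPKM sums and to 0.0046 when centred, as a shift of all genes by construction gives. No enzyme that was at least 2-fold lower changed sign under any of these settings. That outcome was fixed in advance and is no support for the calls. Pseudocounts and filters keep the sign of a ratio, and the scalings moved ratios too little to carry a 2-fold difference past 0. No paired analysis was possible because each group has 1 library. With 1 library a group, the spread between samples is unknown for every value. Depth adds counting error to low genes, such as Sirt4 (about 38 fragments in TIC), Hdac10 (70) and Setd4 (14 in NTC), and Dnmt3l and Hdac9 rest on about 1 or 2 fragments.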

Other observations

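The enzymes depend on small molecules of metabolism, and genes that supply them were lower in TIC as values. Of 12 measured genes for acetyl-CoA, NAD+, S-adenosylmethionine and 2-oxoglutarate supply, 3 were at least 2-fold lower and none higher, with a median log2 ratio of -0.66 (-0.50 when centred on the median measured gene, with 2 at least 2-fold lower). Idh1, which makes 2-oxoglutarate in the cytosol, had 13.4 against 42.8 FPKM (-1.60). Acly, which makes acetyl-CoA from citrate, had 36.3 against 85.9 FPKM (-1.22), and Acss2, which makes it from acetate, 2.15 against 5.99 (-1.15). Nampt, the rate-limiting enzyme of NAD+ salvage, had 12.5 against 12.6 FPKM (-0.01), and Nmnat1, which completes NAD+ synthesis in the nucleus, 2.57 against 5.53 (-0.87). Ahcy, which clears the by-product of methylation, had 14.9 against 26.04 FPKM (-0.77). Nnmt, which consumes S-adenosylmethionine, was listed at 0 in both.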
